A study of Mus musculus with 23 samples.

Results

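Mouse embryonic fibroblasts (MEFs) deficient in both Snf5 and Ezh2 were compared with wild-type MEFs across all genes. The comparison used the 3 arrays titled as Snf5 Ezh2-deficient and the 3 wild-type arrays titled as their controls, 6 of the 23 arrays of the series. All 22626 probe sets that are not array controls entered the test, and 12393 genes were counted through 1 representative probe set each. The values below are mostly of lineage, matrix, metabolism, transport and signalling genes.

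The gene Smarcb1 encodes Snf5, a core protein of the SWI/SNF complexes, which move nucleosomes and open chromatin at enhancers and promoters. Ezh2 is the catalytic subunit of Polycomb repressive complex 2 (PRC2), which methylates histone H3 on lysine 27 and keeps developmental genes silent, often at promoters rich in CG dinucleotides. The pair is known to act in opposition on many developmental genes. MEFs are a mixed culture of mesenchymal cells grown from whole mid-gestation embryos, and they secrete much of the extracellular matrix that connective tissue is made of.

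Both groups were embryonic fibroblasts of stage E13.5, one with the genotype Snf5 Ezh2-deficient and the other Wild Type. The series text speaks of conditional inactivation of both genes. The labels do not say how and when the genes were inactivated, whether the control cells received the same recombinase, or which strain and passage were used. The titles call the arrays biological replicates without saying whether each came from its own embryo or culture, so p-values measure the spread between these samples only. Fibroblasts lacking Snf5 alone were not analysed here, so the share of each gene in the changes cannot be told apart, and a line lacking Ezh2 alone was used below for contrast.

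The targeted genes were read first, on every array. Ezh2 read log2 8.02, 8.07 and 8.02 on the wild-type arrays and 6.65, 6.10 and 6.38 on the double-deficient arrays (log2 change -1.66, SE 0.122, adjusted p = 5.49e-05; SE is the standard error of the change). Smarcb1 read 9.08, 9.22 and 9.25 on the wild-type arrays and 6.77, 6.56 and 6.83 on the double-deficient arrays (log2 change -2.46, SE 0.0848, adjusted p = 2.83e-06). Both genes were lower on every double-deficient array, and the exact two-sided permutation test gave p = 0.1 for each, the smallest that 3 against 3 arrays allow. The labels do not place the probes against the deleted exons, and probes outside the deletion would check nothing. Array medians lay between log2 7.264 and 7.29, and the signal of the 3′ probe sets of Actb over the 5′ ones was 0.065 to 0.0916 (log2) over both groups. The Y-linked gene Eif2s3y read 8.19, 8.02 and 8.16 on the wild-type arrays and 8.14, 8.16 and 8.53 on the double-deficient arrays (adjusted p = 0.36), and Xist read 6.25 to 6.39 in both groups.

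The double-deficient MEFs differed from wild-type MEFs at 3363 of 12393 genes (27.1%), with 1631 higher (13.2%) and 1732 lower (14.0%) at an adjusted p under 0.05 in limma's linear model with Benjamini-Hochberg adjustment. The changes of at least 2-fold numbered 312, of which 176 were rises and 136 were falls, and 20 of the 176 rises were members of the interferon-stimulated list. A change of at least 4-fold was seen in 28 genes that rose and 11 that fell. For the reading of single values, the arrays of a group did not overlap those of the other in 42.8% of all genes, and in 3349 of the 3363 called genes.

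**Figure D1:**
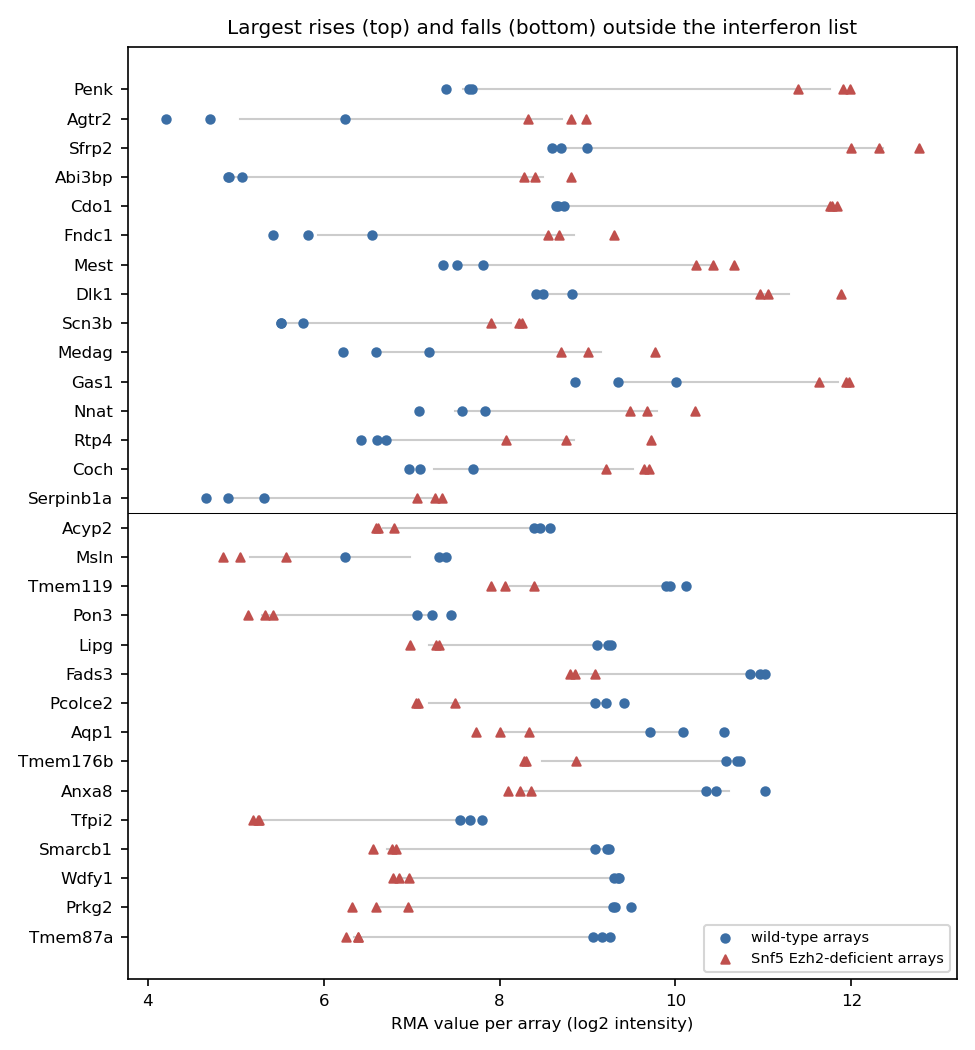
RMA value (log2 intensity) of the 15 genes with the largest rises and the 15 with the largest falls outside the interferon list, with 1 point per array (circles, 3 wild-type arrays; triangles, 3 Snf5 Ezh2-deficient arrays) and a grey line between group means. The falls include the targeted gene Smarcb1, and clone and predicted gene names are left out. Penk moved furthest among the rises and Tmem87a among the falls, and in each row the circles and triangles do not overlap, as the selection required.

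Penk, which encodes the precursor of the enkephalin opioid peptides, had the largest rise outside the interferon list. It read log2 7.66, 7.68 and 7.39 on the wild-type arrays and 11.40, 11.91 and 11.98 on the double-deficient arrays. The groups were 18.2-fold apart (log2 change 4.18, SE 0.152, adjusted p = 2.83e-06), and each double-deficient array stood above each wild-type array. Sfrp2 encodes a secreted antagonist of Wnt ligands and read 8.60, 8.70 and 8.99 on the wild-type arrays and 12.32, 12.77 and 11.99 on the double-deficient arrays, a rise of 12.1-fold (log2 change 3.60, SE 0.183, adjusted p = 1.14e-05). Cdo1, the dioxygenase that starts cysteine breakdown, read 8.66, 8.73 and 8.64 on the wild-type arrays and 11.78, 11.76 and 11.84 on the double-deficient arrays. It rose 8.65-fold with nearly equal values inside each group (log2 change 3.11, SE 0.0599, adjusted p = 1.5e-07).

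Agtr2 encodes the type 2 angiotensin receptor, which is mostly expressed in fetal mesenchyme. It read 4.20, 6.24 and 4.70 on the wild-type arrays and 8.33, 8.81 and 8.98 on the double-deficient arrays, with 2 of the 3 wild-type arrays in the lowest 25% of the values of their array (below a bound of 5.425 to 5.515). Its 12.6-fold rise is therefore one from near the floor (log2 change 3.66, SE 0.446, adjusted p = 0.000616). Abi3bp, an extracellular matrix protein, lay at the floor on all 3 wild-type arrays and read 4.91, 5.07 and 4.92 on the wild-type arrays and 8.41, 8.81 and 8.28 on the double-deficient arrays. Its rise of 11.6-fold (log2 change 3.53, SE 0.127, adjusted p = 2.83e-06) is a difference of RMA values and no measure of the true ratio. Among genes changed at least 2-fold, the lower group lay in that lowest 25% on all its arrays for 11 of the 176 rises and 20 of the 136 falls. Of the called genes named here, Bmp1, Cav2, Cebpd, Col5a3, Ehd2, Fabp4, Fn1, Gas1, Hoxa9, Idh1, Igfbp7, Mgst1, Myh11, Papss2, Phgdh, Ppargc1a, Rnf2, Rtp4, Tap1, Tgm2 and Wls also had a dimmer probe set that did not pass. Of the 1531 called genes with more than 1 probe set, 10 had another one called in the opposite direction.

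The other rises of the first 15 included Coch, a secreted protein of the inner ear matrix, Serpinb1a, an inhibitor of neutrophil proteases, and Medag, which promotes fat cell formation. They rose 4.8-fold, 4.79-fold and 5.62-fold (adjusted p = 0.000112, 4.07e-05 and 0.000557), Serpinb1a from the floor of the arrays.

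Tmem87a, a membrane protein of the Golgi, fell furthest. It read log2 9.06, 9.26 and 9.16 on the wild-type arrays and 6.25, 6.39 and 6.39 on the double-deficient arrays, a fall of 7.05-fold (log2 change -2.82, SE 0.0741, adjusted p = 7.21e-07). Prkg2, a cGMP-dependent protein kinase with a role in bone growth, read 9.29, 9.31 and 9.49 in wild-type and 6.59, 6.32 and 6.96 in double-deficient MEFs and fell 6.67-fold (log2 change -2.74, SE 0.146, adjusted p = 1.35e-05). Aqp1, a water channel of the plasma membrane, fell 4.26-fold, with 9.71, 10.08 and 10.55 in wild-type and 7.73, 8.34 and 8.00 in double-deficient MEFs (log2 change -2.09, SE 0.213, adjusted p = 0.00026). Tmem176b, Tmem119, Acyp2 and Wdfy1 fell by 2.19, 1.87, 1.81 and 2.47 on the log2 scale (adjusted p = 3.74e-05, 3.23e-05, 5.4e-06 and 7.21e-07). Pon3, a lactonase bound to lipoproteins, fell 3.85-fold to the floor of the arrays (adjusted p = 1.68e-05). The labels name no strain for either group, and the part of strain in these falls was not tested.

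Polycomb and SWI/SNF regulators both act at promoters. The 250 bases before the RefSeq gene start are therefore shown for 2 of the 15 largest rises and 2 of the 15 largest falls. They were the first 2 of each by size with a single promoter entry, the targeted gene Smarcb1 and a chromosome being left out. CG content was not part of this rule. The sequences are from RefSeq (GRCm38.p6), 5′ to 3′ on the strand of the gene, with the dinucleotide CG in capitals. It reads the same on both strands.
Agtr2, chrX:21484374-21484623, plus strand: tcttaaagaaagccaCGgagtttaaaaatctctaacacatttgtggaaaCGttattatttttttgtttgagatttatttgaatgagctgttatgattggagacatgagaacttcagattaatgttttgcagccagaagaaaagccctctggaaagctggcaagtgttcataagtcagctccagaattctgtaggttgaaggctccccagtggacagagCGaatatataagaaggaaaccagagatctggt
Sfrp2, chr3:83766071-83766320, plus strand: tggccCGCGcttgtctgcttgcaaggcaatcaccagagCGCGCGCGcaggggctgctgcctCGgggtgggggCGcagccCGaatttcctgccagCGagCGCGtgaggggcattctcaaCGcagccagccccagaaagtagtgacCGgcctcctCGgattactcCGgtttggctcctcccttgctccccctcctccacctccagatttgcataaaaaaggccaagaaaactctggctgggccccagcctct
Tmem87a, chr2:120404117-120404366, minus strand: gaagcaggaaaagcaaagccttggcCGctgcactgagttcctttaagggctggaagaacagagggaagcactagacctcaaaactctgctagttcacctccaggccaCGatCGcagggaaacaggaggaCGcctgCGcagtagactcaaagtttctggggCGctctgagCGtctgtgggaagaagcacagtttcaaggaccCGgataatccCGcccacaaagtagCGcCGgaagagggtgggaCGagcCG
Anxa8, chr14:34085729-34085978, plus strand: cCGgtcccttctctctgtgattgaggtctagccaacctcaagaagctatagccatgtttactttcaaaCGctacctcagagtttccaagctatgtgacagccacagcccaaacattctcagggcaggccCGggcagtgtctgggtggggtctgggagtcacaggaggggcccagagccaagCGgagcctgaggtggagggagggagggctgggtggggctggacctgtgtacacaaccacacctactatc
The Agtr2 window held 3 CG at 38.4% G and C, and the Sfrp2 window held 16 at 63.6%. Among the falls, Tmem87a had 13 CG at 56.8% and Anxa8 had 4 at 58%. At least 1 CG was present in 97% of the 9887 measured genes with a promoter in the table, which held a median of 13. These were 79.8% of all measured genes, so both values describe the matched genes only. The tables matched 132 of the 176 genes that rose at least 2-fold (75%) and 105 of the 136 that fell (77.2%). A comparison of CG content between these sets was void, because fewer than 80% of each set had a promoter in the table.

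The 51 gene lists gave a view of whole programs. Beside the 13.2% of all genes that rose and the 14.0% that fell, the lists with the highest shares of rises were interferon-stimulated genes (33 of 45), p53 targets (17 of 26) and the Wnt pathway (19 of 42). The highest shares of falls were in glycolysis (10 of 19), caveolae (4 of 8) and cholesterol synthesis (9 of 19). Either way 27.1% of all genes were called, and the counts of each list below are to be read beside these shares. The lists were drawn up with earlier results of these arrays known, and no test of a list was made.

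**Figure D2:**
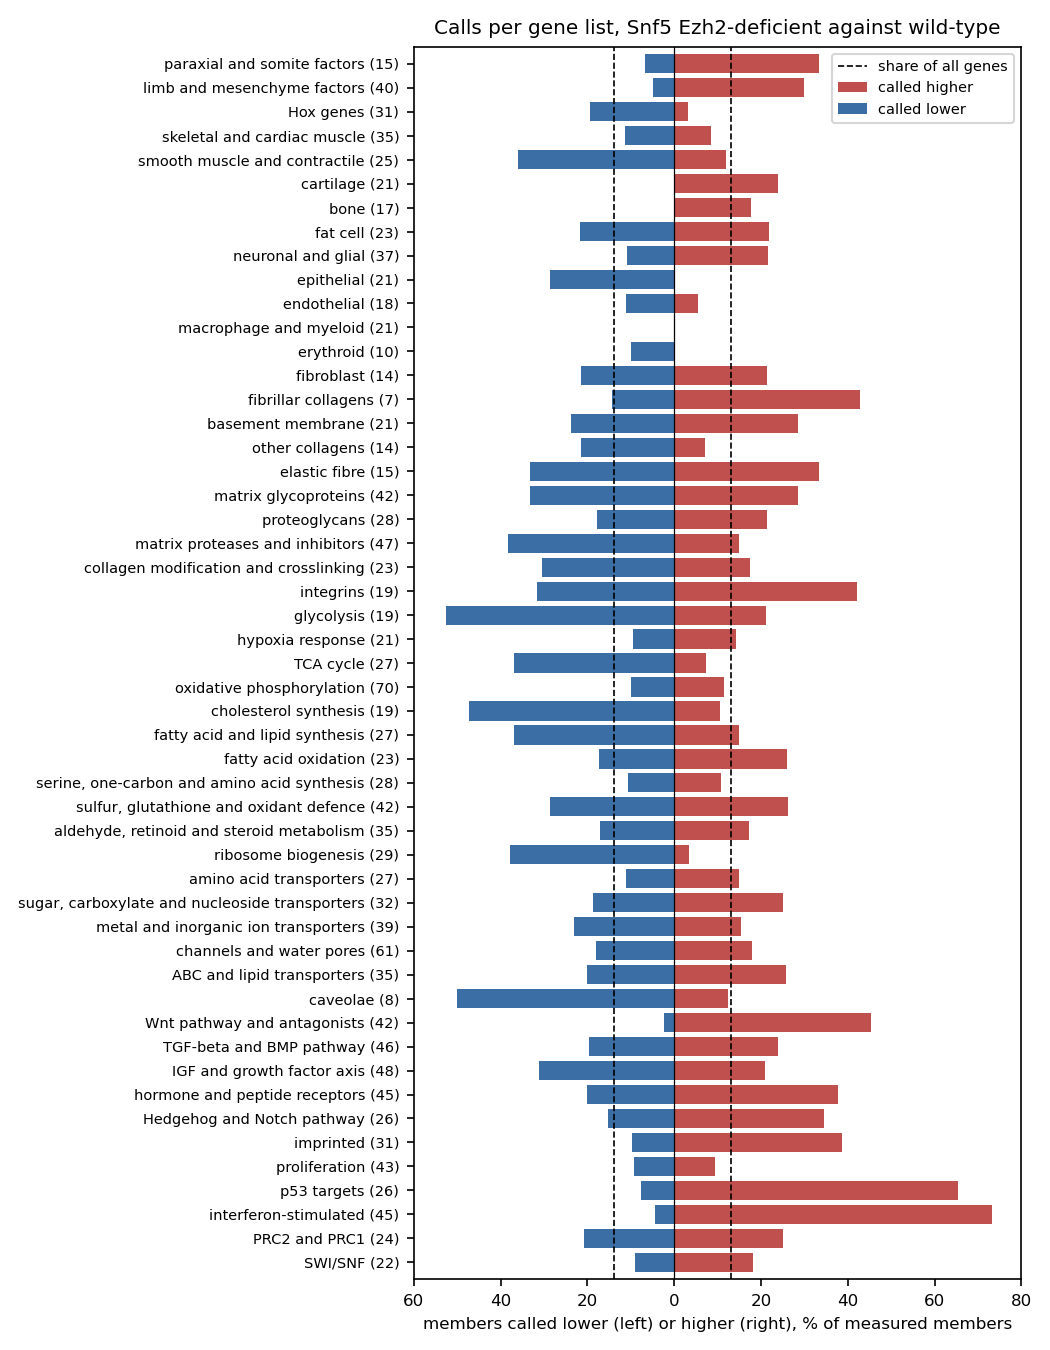
Share of the measured members (number in brackets) of each of the 51 lists called higher (right, red) or lower (left, blue) in Snf5 Ezh2-deficient against wild-type MEFs, in percent. The dashed lines mark the shares over all 12393 genes, 13.2% higher and 14.0% lower; the bar of the Wnt list reaches 45.2% to the right and that of glycolysis 52.6% to the left.

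Lineage regulators of mesenchyme changed more often upward than downward. Of 40 measured transcription factors of limb and mesenchyme, 12 rose and 2 fell, with a median log2 change of 0.07 over the list against -0.00244 over all genes. Msx1, a homeobox repressor that keeps limb mesenchyme undifferentiated, read log2 8.50, 8.96 and 9.19 on the wild-type arrays and 9.86, 10.09 and 9.89 on the double-deficient arrays and rose 2.09-fold (log2 change 1.07, SE 0.157, adjusted p = 0.00154). Osr1, a zinc finger factor of intermediate mesoderm and limb connective tissue, rose 2.02-fold, with 9.03, 9.26 and 9.32 in wild-type and 10.03, 10.35 and 10.28 in double-deficient MEFs (adjusted p = 0.000291). Tbx2, a T-box repressor, rose 2.01-fold (adjusted p = 0.000369), and Zic1, a zinc finger factor of the dorsal neural tube and somites, fell 2.06-fold (adjusted p = 0.00602). The 2 falls of this list were 1 without double-deficient array 1 and 4 without double-deficient array 2, with array medians centred or with a trended prior variance.

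Somite factors went the same way in number: 5 of 15 rose and 1 fell. Meox1, needed for somite patterning, read 7.42, 7.79 and 7.39 in wild-type and 8.78, 8.66 and 8.59 in double-deficient MEFs and rose 2.21-fold (log2 change 1.14, SE 0.111, adjusted p = 0.000209). Pax1, a marker of the ventral somite from which vertebrae form, rose 1.99-fold (adjusted p = 0.000985), and Foxc2, a forkhead factor of paraxial mesoderm, fell by 0.69 on the log2 scale (adjusted p = 0.00296).

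Hox genes set position along the body axis and are classical Polycomb targets. Among 31 measured Hox genes 6 fell and 1 rose, shares of 19.4% and 3.23%, and 24 did not pass the test. Hoxa9 read 8.53, 8.06 and 8.18 on the wild-type arrays and 7.51, 7.26 and 7.62 on the double-deficient arrays and fell 1.73-fold (log2 change -0.79, SE 0.133, adjusted p = 0.00306). Hoxa10 and Hoxb2 fell by 0.58 and 0.49 on the log2 scale (adjusted p = 0.000971 and 0.00989). The rise, that of Hoxc8 (0.48), was lost without array 1 or 3 of the wild type or array 2 of the double-deficient group, and a second Hox gene rose with dim probe sets left out, in the fit of 9 arrays and with the mean of all probe sets of a gene.

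Cartilage genes rose in 5 of 21 measured members (23.8%, against 13.2% of all genes) and fell in 0 (against 14.0%). The share called either way was thus 23.8%, against 27.1% of all genes, and the median log2 change was 0.03. Col2a1, the main collagen of cartilage, read log2 8.82, 7.93 and 8.53 in wild-type and 10.27, 10.06 and 9.56 in double-deficient MEFs and rose 2.91-fold (log2 change 1.54, SE 0.236, adjusted p = 0.0019). Col11a1, which nucleates the same fibrils, read 10.12, 10.14 and 9.95 in wild-type and 11.57, 11.58 and 11.58 in double-deficient MEFs, a rise of 2.84-fold with a narrower spread (adjusted p = 6.4e-06). Col10a1, a collagen of hypertrophic cartilage, rose 2.36-fold (adjusted p = 0.00214). Sox9, the master regulator of the cartilage lineage, read 6.97, 7.11 and 7.02 on the wild-type arrays and 7.28, 7.40 and 7.10 on the double-deficient arrays and did not pass (adjusted p = 0.089). Of 17 bone genes, 3 rose (17.6%) and 0 fell. Among the rises was the calcification inhibitor Mgp (2.04-fold, adjusted p = 0.00894).

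Among muscle and contractile genes, the smooth muscle list fell more often than it rose. Of its 25 genes 9 fell (36%, against 14.0% of all genes) and 3 rose (12%, against 13.2%). The rises were Myh11, Synpo2 and Actg2, a myosin heavy chain, an actin-binding protein and an actin of smooth muscle, at 1.97-fold, 1.95-fold and 1.93-fold (adjusted p = 0.000487, 9.46e-05 and 0.000117). Myh11 read 8.63, 8.18 and 8.45 in wild-type and 9.33, 9.33 and 9.52 in double-deficient MEFs, so the groups did not overlap. Kcnmb1, a subunit of the calcium-activated potassium channel, fell 2.56-fold and Cnn1, the contractile regulator calponin, fell 1.68-fold (adjusted p = 4.87e-05 and 0.00201). Acta1, the actin of skeletal muscle, read 12.39, 11.56 and 11.94 in wild-type and 10.54, 10.22 and 10.55 in double-deficient MEFs and fell 2.89-fold (log2 change -1.53, SE 0.189, adjusted p = 0.00064). In the skeletal and cardiac list as a whole 3 of 35 rose (8.57%) and 4 fell (11.4%), shares below those of all genes. The falls were 2 without wild-type array 2 or double-deficient array 1.

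Fat cell genes split evenly, with 5 of 23 higher and 5 lower. Dlk1, a surface protein that marks preadipocytes and inhibits their differentiation, read 8.49, 8.83 and 8.42 on the wild-type arrays and 10.96, 11.88 and 11.05 on the double-deficient arrays and rose 6.58-fold (log2 change 2.72, SE 0.226, adjusted p = 9.66e-05). Cebpd, an early factor of adipogenesis, rose 1.82-fold (adjusted p = 0.000518). Fabp4, a fatty acid carrier of mature fat cells, read 8.74, 8.71 and 8.69 in wild-type and 7.54, 7.14 and 7.15 in double-deficient MEFs and fell 2.71-fold (log2 change -1.44, SE 0.106, adjusted p = 5.44e-05), and Lpl, the lipase that releases fatty acids from lipoproteins, fell 1.66-fold (adjusted p = 0.00063). Pparg, the central regulator of fat cell formation, did not pass (log2 change -0.27, adjusted p = 0.12).

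In the neuronal and glial list 8 of 37 genes rose (21.6%, against 13.2% of all genes) and 4 fell (10.8%, against 14.0%). Besides Penk, Nnat, a small imprinted membrane protein of the developing brain, read 7.84, 7.57 and 7.08 in wild-type and 10.23, 9.48 and 9.67 in double-deficient MEFs and rose 4.91-fold (log2 change 2.30, SE 0.223, adjusted p = 0.000207). Nefl, the light chain of neurofilaments, rose 2.49-fold from the floor of the arrays (adjusted p = 0.0038). Fabp7, a fatty acid carrier of radial glia, Map2, a microtubule protein of dendrites, and Nes, the intermediate filament nestin, fell by 1.42, 0.82 and 0.80 on the log2 scale (adjusted p = 0.00926, 0.00751 and 0.000299). Scn3b, a sodium channel subunit outside the list, read 5.52, 5.77 and 5.51 on the wild-type arrays and 7.90, 8.25 and 8.23 on the double-deficient arrays and rose 5.77-fold (adjusted p = 5.4e-06).

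Markers of other cell types were read beside these programs. Of 14 fibroblast markers none lay in the lowest 25% on all 6 arrays, and Col1a1, Col1a2 and Vim averaged 13.41, 13.45 and 14.30 in wild-type and 13.31, 13.31 and 14.27 in double-deficient MEFs, so the labelled cell type was borne out on both sides. Pdgfra, the receptor for platelet-derived growth factor that marks mesenchymal progenitors, rose 3.39-fold, with 6.65, 7.62 and 6.96 in wild-type and 8.53, 9.14 and 8.83 in double-deficient MEFs (log2 change 1.76, SE 0.236, adjusted p = 0.000969). In this list 3 genes rose and 3 fell, with a median log2 change of -0.12. The falls were those of Thy1, S100a4 and Fn1 (log2 change -0.61, -0.26 and -0.21). No fall passed without array 1 or 2 of the wild type or array 1 of the double-deficient group, while 1 passed without wild-type array 3 or double-deficient array 2.

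No marker of macrophages and myeloid cells changed among 21, and Ptprc, the pan-leukocyte antigen, read 4.55 and 4.46 on average, within the lowest 25%. The summed linear level of the myeloid list lay between 1901 and 2542 on the wild-type arrays and between 1918 and 2619 on the double-deficient arrays. For 10 erythroid markers the sums were 1863 to 1931 and 1487 to 1666, and the transferrin receptor Tfrc, which other cells use too, was the single call (log2 change -0.39). Endothelial sums were 2250 to 2505 and 2114 to 2239. There the receptor Tek rose 2.76-fold from near the floor, the lymphatic receptor Flt4 fell 2.39-fold (adjusted p = 9.45e-06 and 0.000757) and Pecam1 and Cdh5, which define the type, stayed in the lowest 25% in both groups (means 4.33 to 4.35 and 4.92 to 4.94).

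Epithelial and mesothelial markers fell in 6 of 21 cases (28.6%, against 14.0% of all genes) and rose in 0 (against 13.2%). Their summed level was 4678 to 5606 on the wild-type and 3047 to 3306 on the double-deficient arrays. Krt7, a keratin of simple epithelia, read 7.35, 7.26 and 7.51 in wild-type and 5.51, 5.75 and 5.81 in double-deficient MEFs and fell 3.22-fold (log2 change -1.69, SE 0.0964, adjusted p = 1.71e-05). Anxa8, an annexin of epithelia, fell 5.22-fold with 10.35, 10.46 and 11.02 on the wild-type arrays and 8.23, 8.09 and 8.36 on the double-deficient arrays (adjusted p = 3.94e-05), and Msln, the surface protein mesothelin, fell 3.53-fold with 6.24, 7.39 and 7.32 in wild-type and 4.86, 5.57 and 5.05 in double-deficient MEFs (adjusted p = 0.00266), the last group with 2 arrays in the lowest 25%. Cdh1 and Epcam, which define epithelium, lay in the lowest 25% in both groups (means 4.13 and 4.19 for Cdh1, 5.12 and 5.14 for Epcam). In RNA of whole cultures, fewer cells of a type and less RNA per cell cannot be told apart, and the part of such cells in other results was not tested.

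Extracellular matrix genes changed in both directions, often within 1 family. In all, 35 matrix and adhesion genes changed at least 2-fold. Of 7 fibrillar collagens 3 rose and 1 fell. Col5a3 read log2 7.30, 7.47 and 7.58 in wild-type and 8.88, 9.63 and 9.23 in double-deficient MEFs and rose 3.47-fold (log2 change 1.79, SE 0.167, adjusted p = 0.000167), whereas Col5a1, the chain of the same collagen type that starts fibrils in connective tissue, read 12.25, 12.13 and 12.28 on the wild-type arrays and 11.12, 11.21 and 11.61 on the double-deficient arrays and fell 1.88-fold (log2 change -0.91, SE 0.121, adjusted p = 0.000925). The main chains Col1a1 and Col1a2 did not pass (log2 change -0.10 and -0.13, adjusted p = 0.57 and 0.283). Of 14 other collagens, Col12a1, Col6a3 and Col7a1 fell 1.81-fold, 1.81-fold and 1.67-fold (adjusted p = 0.00903, 0.00647 and 0.00465).

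**Figure D3:**
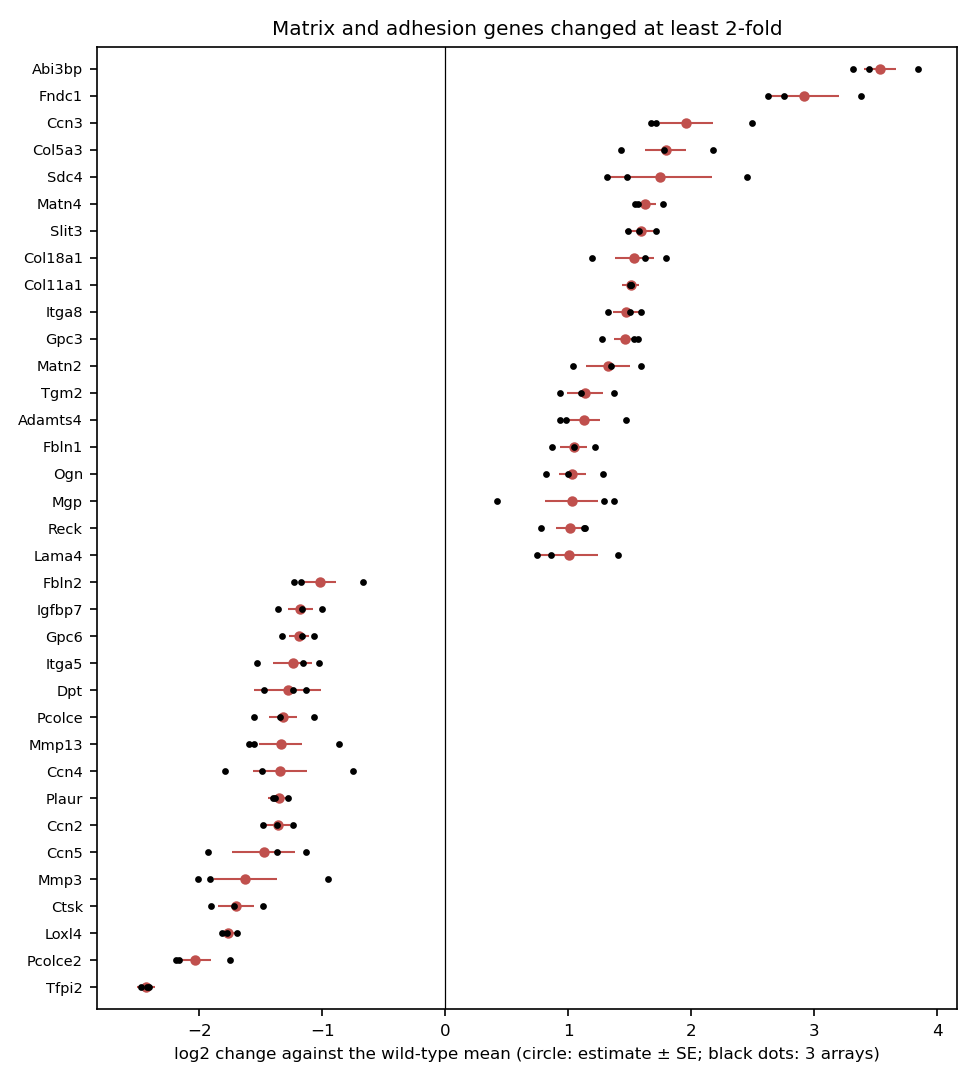
Log2 change of the 35 matrix and adhesion genes changed at least 2-fold, sorted by size (circle with bar, estimate ± SE; black dots, the 3 Snf5 Ezh2-deficient arrays against the wild-type mean). Abi3bp and Fndc1 lie highest and Tfpi2 and Pcolce2 lowest, and the members of the CCN family stand on both sides of 0.

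In basement membranes, the sheets under epithelia and around vessels, 6 of 21 genes rose and 5 fell. Col18a1, the collagen from which endostatin is cut, read 7.70, 8.12 and 7.99 in wild-type and 9.13, 9.56 and 9.73 in double-deficient MEFs and rose 2.9-fold (log2 change 1.54, SE 0.159, adjusted p = 0.000278). Lama4, a laminin chain of vessel walls, rose 2-fold (adjusted p = 0.0144), while Lama2, the laminin chain of muscle, fell by 0.72 on the log2 scale (adjusted p = 0.00064). Nid2 rose 1.6-fold and its relative Nid1, which likewise bridges laminin and collagen, fell 1.43-fold (adjusted p = 0.00926 and 0.00286). The falls numbered 3 without array 1 or 3 of the wild type.

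Elastic fibre genes divided into 5 higher and 5 lower of 15. Eln, the elastin of the fibre core, read 7.83, 7.98 and 7.89 in wild-type and 8.38, 8.85 and 9.26 in double-deficient MEFs and rose 1.91-fold (adjusted p = 0.0068), and Fbn2, the fetal fibrillin of the microfibril scaffold, rose 1.87-fold (adjusted p = 0.00339). Fbln1 rose 2.06-fold, with 7.42, 7.77 and 7.59 on the wild-type arrays and 8.64, 8.46 and 8.81 on the double-deficient arrays (log2 change 1.04, SE 0.113, adjusted p = 0.000329). Its relative Fbln2 fell 2.03-fold, with 13.37, 13.29 and 13.28 in wild-type and 12.14, 12.09 and 12.64 in double-deficient MEFs (log2 change -1.02, SE 0.135, adjusted p = 0.000892). In neither of these fibulins did the groups overlap. The falls of this list were 2 without wild-type array 2, double-deficient array 1 or double-deficient array 2.

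The CCN proteins, which bind matrix and modulate growth factor signals, moved apart. Ccn3 read 7.95, 8.45 and 8.22 in wild-type and 9.92, 10.70 and 9.88 in double-deficient MEFs and rose 3.89-fold (log2 change 1.96, SE 0.215, adjusted p = 0.000362). Ccn2, the connective tissue growth factor, read 13.79, 13.44 and 13.61 on the wild-type arrays and 12.38, 12.13 and 12.24 on the double-deficient arrays and fell 2.57-fold (log2 change -1.36, SE 0.102, adjusted p = 5.7e-05). Ccn5 fell 2.78-fold (adjusted p = 0.00346). Among 42 matrix glycoproteins in all, 12 rose and 14 fell, and the rises included Fndc1, a protein with fibronectin type III domains (7.55-fold, adjusted p = 0.000202).

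Proteoglycans showed the same division. Gpc3, a heparan sulfate proteoglycan that restrains embryonic growth, read 7.91, 7.99 and 7.89 in wild-type and 9.21, 9.50 and 9.46 in double-deficient MEFs and rose 2.75-fold (log2 change 1.46, SE 0.0863, adjusted p = 2.04e-05). Gpc6, of the same glypican family, read 10.09, 10.12 and 9.99 in wild-type and 9.0, 8.91 and 8.74 in double-deficient MEFs and fell 2.28-fold (log2 change -1.19, SE 0.0798, adjusted p = 3.78e-05). Ogn, a small leucine-rich proteoglycan, rose 2.05-fold and the syndecan Sdc3 fell 1.92-fold (adjusted p = 0.000325 and 0.000137). Over the list 6 of 28 rose and 5 fell.

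Matrix proteases and their inhibitors mostly fell where they changed: 18 of 47 fell (38.3%, against 14.0% of all genes) and 7 rose. Tfpi2, an inhibitor of serine proteases in the matrix, read 7.54, 7.66 and 7.80 on the wild-type arrays and 5.20, 5.26 and 5.25 on the double-deficient arrays, with all 3 double-deficient arrays at the floor, and fell 5.4-fold (log2 change -2.43, SE 0.0756, adjusted p = 1.7e-06). Ctsk, the cathepsin that digests collagen, read 8.95, 9.50 and 9.27 in wild-type and 7.34, 7.52 and 7.76 in double-deficient MEFs and fell 3.25-fold (log2 change -1.70, SE 0.148, adjusted p = 0.000122). Mmp3, the protease stromelysin, fell 3.08-fold (adjusted p = 0.00223). The rises included the aggrecan-cutting Adamts4 (2.18-fold, adjusted p = 0.000473) and Reck, a membrane inhibitor of metalloproteases, which read 7.82, 7.78 and 7.60 in wild-type and 8.51, 8.86 and 8.87 in double-deficient MEFs and rose 2.02-fold (adjusted p = 0.000315).

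Enzymes that process and crosslink collagen fell in 7 and rose in 4 of 23 cases. Loxl4, a lysyl oxidase that crosslinks collagen, read 9.07, 9.12 and 9.25 on the wild-type arrays and 7.37, 7.34 and 7.45 on the double-deficient arrays and fell 3.39-fold (log2 change -1.76, SE 0.0696, adjusted p = 4.54e-06). Pcolce and Pcolce2, both enhancers of the protease that trims procollagen, fell 2.5-fold and 4.09-fold (adjusted p = 0.000115 and 2.92e-05). Pcolce read 12.19, 12.18 and 12.25 in wild-type and 10.65, 10.87 and 11.14 in double-deficient MEFs. Bmp1, that protease itself, fell 1.65-fold (adjusted p = 0.000702), so the protease and both of its enhancers were lower. The transglutaminase Tgm2 rose 2.2-fold and the lysyl oxidase Loxl3 rose 1.54-fold (adjusted p = 0.000757 and 0.000304).

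Integrins, the receptors through which cells hold the matrix, changed in both directions. Itga8, a chain for receptors of nephronectin and fibronectin, read 7.63, 7.98 and 7.97 in wild-type and 9.45, 9.36 and 9.18 in double-deficient MEFs and rose 2.77-fold (log2 change 1.47, SE 0.11, adjusted p = 5.74e-05). Itga5, the chain of the main fibronectin receptor, read 11.41, 10.89 and 11.20 on the wild-type arrays and 10.01, 9.63 and 10.14 on the double-deficient arrays and fell 2.36-fold (log2 change -1.24, SE 0.157, adjusted p = 0.000741). Itgb4 rose 1.96-fold, and Itga3 and Itga7, chains for laminin receptors, fell 1.96-fold and 1.69-fold (adjusted p = 0.000794, 0.000324 and 0.000155). Of 19 genes 8 rose and 6 fell; the rises were 3 without array 2 of the wild type, 4 without array 3 of either group, and 5 without any of the other 3 arrays.

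Many genes of central carbon metabolism were lower. Of 19 glycolysis genes 10 fell (52.6%) and 4 rose (21.1%), with a median log2 change of -0.29. The changes of enzymes were below 2-fold. Hk2 and Hk1, the hexokinases that trap glucose in the cell, read 9.23, 9.04 and 9.07 in wild-type and 8.47, 8.24 and 8.77 in double-deficient MEFs for Hk2 and fell 1.54-fold and 1.5-fold (adjusted p = 0.00751 and 0.000468). Slc16a3, which exports lactate, read 9.47, 9.19 and 9.27 in wild-type and 7.90, 7.86 and 8.38 in double-deficient MEFs and fell 2.4-fold (log2 change -1.26, SE 0.14, adjusted p = 0.000375). Slc16a1, a carrier of lactate and pyruvate with a wider tissue range, rose 1.53-fold (adjusted p = 0.000917), and the enzyme forms Eno2 and Ldhb rose by 0.57 and 0.61 on the log2 scale (adjusted p = 0.000418 and 0.000956).

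Glucose transport went the other way in 1 carrier. Slc2a3, the high-affinity glucose transporter GLUT3, read 8.34, 8.59 and 8.44 on the wild-type arrays and 10.42, 10.21 and 10.60 on the double-deficient arrays and rose 3.88-fold (log2 change 1.96, SE 0.106, adjusted p = 1.4e-05). Slc2a1, the common transporter GLUT1, did not pass (log2 change -0.15, adjusted p = 0.375). Of 21 genes known to respond to low oxygen, 3 rose and 2 fell (23.8% either way, against 27.1% of all genes). Car12, a carbonic anhydrase at the cell surface, rose 2.47-fold with 5.59, 6.06 and 5.83 in wild-type and 7.37, 6.87 and 7.15 in double-deficient MEFs (adjusted p = 0.0004). The 2 falls were 1 without array 1 or 3 of the wild type or array 1 or 2 of the double-deficient group, 0 in the fit of 9 arrays and 4 with the mean of all probe sets of a gene.

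**Figure D4:**
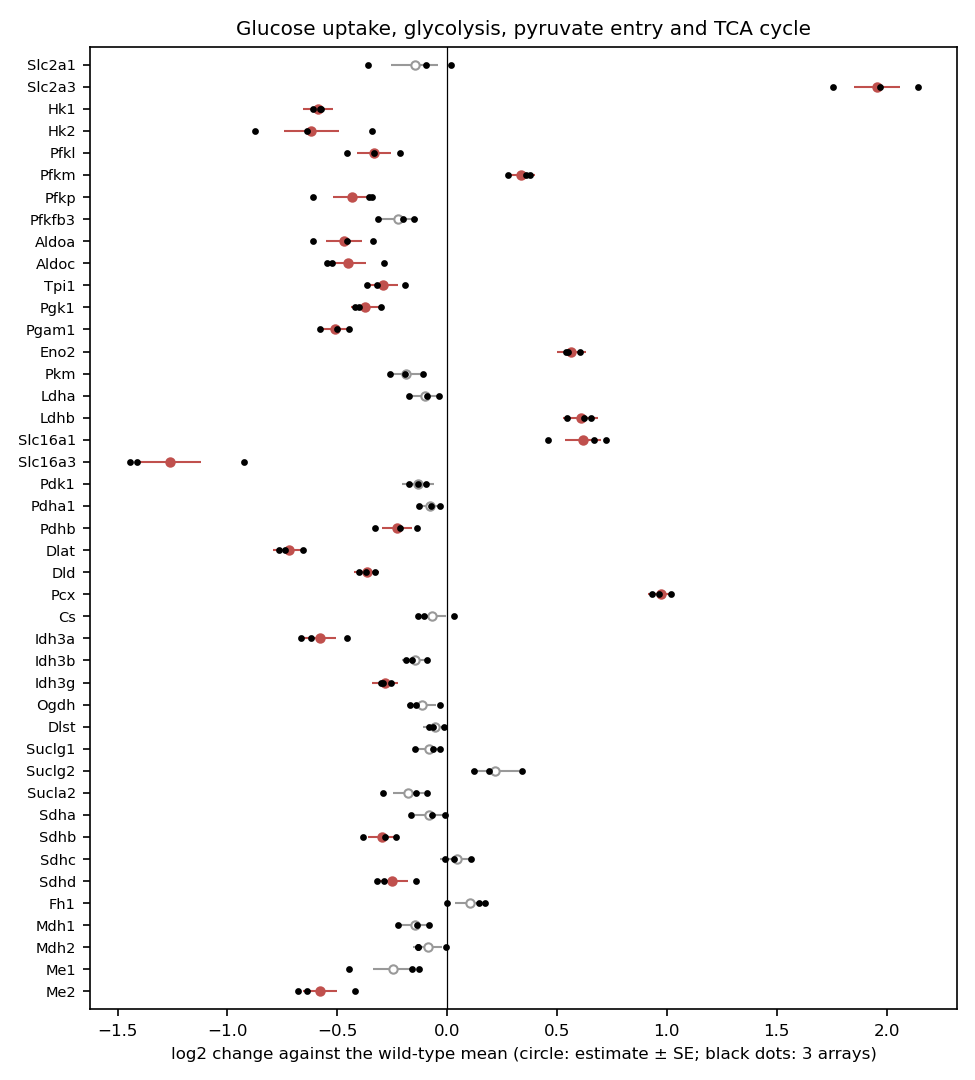
Log2 change of genes of glucose uptake, glycolysis, pyruvate entry and the TCA cycle in pathway order from top to bottom (filled circle with bar, called estimate ± SE; open grey circle, not called; black dots, the 3 Snf5 Ezh2-deficient arrays against the wild-type mean). Slc2a3 stands at 1.96 near the top, Slc16a3 at -1.26, and most filled circles of enzymes lie left of 0, with Pcx at 0.97 to the right.

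In the TCA cycle and pyruvate entry 10 of 27 genes fell and 2 rose. Dlat, the acetyltransferase of the pyruvate dehydrogenase complex, read 9.47, 9.47 and 9.68 in wild-type and 8.88, 8.78 and 8.80 in double-deficient MEFs and fell 1.65-fold (log2 change -0.72, SE 0.0754, adjusted p = 0.000292). Idh3a, the isocitrate dehydrogenase subunit, and Me2, a mitochondrial malic enzyme, fell 1.49-fold and 1.49-fold (adjusted p = 0.000679 and 0.00104). Pcx, pyruvate carboxylase, which feeds the cycle with oxaloacetate, read 7.94, 7.91 and 7.89 on the wild-type arrays and 8.88, 8.85 and 8.93 on the double-deficient arrays and rose 1.96-fold (log2 change 0.97, SE 0.058, adjusted p = 2.1e-05). The other rise, that of Idh1 (0.20), did not pass when any 1 array was left out. It also did not pass with array medians centred, in the fit of 9 arrays, with the replicate block or with the mean of its probe sets. Genes of oxidative phosphorylation stood near the background, with 8 of 70 higher and 7 lower, and the falls were 3 or 4 without wild-type array 1, 2 or 3 or double-deficient array 2 and the rises 5 without wild-type array 3. With the replicate block 4 members of that list fell.

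Genes of sterol synthesis and part of fatty acid handling were lower. Cholesterol synthesis genes fell in 9 of 19 cases and rose in 2 (1 without wild-type array 2 and in the fit of 9 arrays), with a median log2 change of -0.27. Cyp51, the lanosterol demethylase, read 9.91, 10.03 and 10.05 in wild-type and 9.15, 9.15 and 9.43 in double-deficient MEFs and fell 1.69-fold (log2 change -0.76, SE 0.0892, adjusted p = 0.000518), and Nsdhl and Msmo1, which act after it, fell 1.47-fold and 1.45-fold (adjusted p = 0.000439 and 0.00221). Fads3 and Fads1, of the fatty acid desaturase family, read 10.96, 10.85 and 11.02 in wild-type and 8.86, 8.80 and 9.09 in double-deficient MEFs for Fads3 and fell 4.07-fold and 1.79-fold (adjusted p = 5.4e-06 and 0.00128). The falls in fatty acid and lipid synthesis numbered 10 of 27 and the rises 4, among which Lpin1, a phosphatidate phosphatase, rose 1.66-fold (adjusted p = 0.00193). These rises were 7 after quantile normalisation and with the mean of all probe sets of a gene. Lipg, the endothelial lipase, which splits phospholipids of lipoproteins, fell 4.02-fold with 9.10, 9.26 and 9.23 on the wild-type arrays and 7.32, 6.98 and 7.28 on the double-deficient arrays (adjusted p = 8.28e-06).

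In fatty acid oxidation 6 of 23 genes rose and 4 fell. Acadvl and Eci2, enzymes of the oxidation spiral, rose 1.32-fold and 1.37-fold (adjusted p = 0.00262 and 0.0032), and Ppargc1a, a coactivator of mitochondrial genes, fell 1.84-fold within the lowest 25% (adjusted p = 0.00215). The rises were 3 without wild-type array 3 or double-deficient array 2.

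Sulfur and redox metabolism held some of the clearest changes of single genes, in both directions. Of 42 genes 11 rose and 12 fell. Papss2, which makes the sulfate donor used to sulfate proteoglycans, read 8.49, 8.45 and 8.49 in wild-type and 10.06, 10.06 and 9.91 in double-deficient MEFs and rose 2.89-fold (log2 change 1.53, SE 0.0653, adjusted p = 5.35e-06). Hmox1, the haem oxygenase of oxidative stress, read 9.78, 9.72 and 9.70 in wild-type and 11.11, 11.07 and 11.18 in double-deficient MEFs and rose 2.61-fold (log2 change 1.39, SE 0.0609, adjusted p = 5.4e-06). Mgst1, a membrane-bound glutathione transferase, read 10.07, 10.30 and 9.86 on the wild-type arrays and 8.77, 8.75 and 8.85 on the double-deficient arrays and fell 2.44-fold (log2 change -1.29, SE 0.106, adjusted p = 9.2e-05). The metallothionein Mt2 fell 1.81-fold (adjusted p = 0.00606).

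Among enzymes and carriers of aldehydes, retinoids, prostanoids and steroids 6 rose and 6 fell of 35. Crabp1, which holds retinoic acid in the cytoplasm of embryonic mesenchyme, read 10.85, 11.68 and 10.91 in wild-type and 13.03, 13.10 and 13.27 in double-deficient MEFs and rose 3.97-fold (log2 change 1.99, SE 0.197, adjusted p = 0.000227). Ptgs2, the inducible cyclooxygenase that makes prostaglandin precursors, read 11.96, 11.42 and 11.84 in wild-type and 10.48, 9.81 and 10.18 in double-deficient MEFs and fell 3-fold (log2 change -1.58, SE 0.183, adjusted p = 0.000471). Cbr2, a carbonyl reductase, and Akr1b8, an aldo-keto reductase, fell 3.09-fold and 2.44-fold (adjusted p = 2.43e-05 and 0.000225). Akr1b8 belongs to a family of near-identical genes, and its probe set may read relatives.

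In the list of serine, one-carbon and amino acid synthesis 3 of 28 rose and 3 fell (10.7% each, against 13.2% and 14.0% of all genes). There were 7 falls without wild-type array 1 and 8 without double-deficient array 3. The falls were 6 with the replicate block, and 5 with array medians centred or with a trended prior variance. Bcat1, which starts the breakdown of branched-chain amino acids, read 9.33, 9.73 and 9.70 on the wild-type arrays and 8.47, 8.15 and 8.70 on the double-deficient arrays and fell 2.22-fold (log2 change -1.15, SE 0.152, adjusted p = 0.000915). Sesn2, a leucine sensor induced by stress, rose 1.65-fold (adjusted p = 0.000325). Ribosome biogenesis genes fell in 11 of 29 cases, with a median log2 change of -0.20, and in 7 cases without array 1 or 3 of the wild type or array 2 of the double-deficient group. Nop56, a core protein of the snoRNPs that methylate ribosomal RNA, read 9.92, 9.99 and 9.93 in wild-type and 9.35, 8.99 and 9.29 in double-deficient MEFs and fell 1.67-fold (adjusted p = 0.000809).

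Transporter genes changed in both directions, with the largest changes in a few carriers. Slc40a1, ferroportin, the only known iron exporter of mammalian cells, read 5.84, 6.14 and 6.14 in wild-type and 8.16, 7.66 and 8.21 in double-deficient MEFs and rose 3.92-fold (log2 change 1.97, SE 0.149, adjusted p = 6.15e-05). Fxyd5, which regulates the sodium pump, read 9.77, 9.93 and 9.79 on the wild-type arrays and 8.41, 8.21 and 8.47 on the double-deficient arrays and fell 2.76-fold (log2 change -1.47, SE 0.0832, adjusted p = 1.66e-05). Slc39a6, a zinc importer, fell 1.69-fold (adjusted p = 0.000195). In the list of metal and inorganic ion transporters 6 of 39 rose and 9 fell.

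Slc2a9, a urate transporter, read 5.87, 5.84 and 5.89 in wild-type and 7.28, 7.37 and 7.45 in double-deficient MEFs and rose 2.83-fold (log2 change 1.5, SE 0.0649, adjusted p = 5.4e-06). Slc5a6, which takes up biotin and pantothenate, rose 1.82-fold (adjusted p = 0.000431). Carriers of sugars, carboxylates and nucleosides rose in 8 and fell in 6 of 32 cases, and 2 or 3 members fell when any 1 array was left out and 3 in the fit of 9 arrays. Among 27 amino acid transporters, Slc6a15, a carrier of branched-chain amino acids and proline, fell 3.22-fold to the floor of the arrays and the creatine carrier Slc6a8 fell 1.7-fold (adjusted p = 2.04e-05 and 0.000622). Slc7a8, a carrier of large neutral amino acids, rose 1.5-fold (adjusted p = 0.00116). This list had 4 rises (14.8%, against 13.2% of all genes) and 3 falls (11.1%, against 14.0%). The rises were 2 without array 1 or 3 of the wild type and with dim probe sets left out.

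Of 61 channels and water pores 11 rose and 11 fell (18% each, against 13.2% and 14.0% of all genes). Besides Aqp1, the voltage-gated potassium channel subunit Kcnab1 fell 1.69-fold, and Kcnk1, a leak potassium channel, and Gjb2, the connexin of gap junctions, rose 2.51-fold and 1.89-fold (adjusted p = 0.000375, 0.00167 and 0.000685). Kcnk1 read 5.71, 6.03 and 5.52 in wild-type and 7.29, 6.61 and 7.33 in double-deficient MEFs, and the groups did not overlap.

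Lipid carriers included Pltp, which transfers phospholipids between lipoproteins. It read 8.84, 8.86 and 8.93 on the wild-type arrays and 10.75, 10.96 and 11.20 on the double-deficient arrays and rose 4.27-fold (log2 change 2.10, SE 0.107, adjusted p = 1.15e-05). Abca1, the exporter of cell cholesterol, read 7.77, 8.25 and 7.79 in wild-type and 8.88, 9.25 and 9.49 in double-deficient MEFs and rose 2.41-fold (log2 change 1.27, SE 0.17, adjusted p = 0.00096). Apod, an apolipoprotein of the lipocalin family, rose 1.83-fold (adjusted p = 0.00145). Of 35 ABC and lipid transporters 9 rose and 7 fell, and the falls were 4 without wild-type array 1 or double-deficient array 1.

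Caveolae, the flask-shaped membrane pits rich in cholesterol, had 4 of 8 measured genes lower and 1 higher. Cav2 read 10.51, 10.46 and 10.70 in wild-type and 9.06, 9.12 and 9.20 in double-deficient MEFs and fell 2.69-fold (log2 change -1.43, SE 0.0788, adjusted p = 1.48e-05), and Cav1, the coat protein that Cav2 partners, fell 1.49-fold (adjusted p = 0.000234). Ehd2, an ATPase at the neck of the pit, fell 1.45-fold (adjusted p = 0.000797). The rise of the list, that of Cavin3 (0.24), did not pass when any 1 array other than double-deficient array 2 was left out, in the fit of 9 arrays or with the replicate block.

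The Wnt list was the most one-sided of the signalling lists: 19 of 42 rose (45.2%) and 1 fell, with a median log2 change of 0.18. The 3 largest rises were all in genes for inhibitors. Beside Sfrp2, Sostdc1, a secreted antagonist of Wnt and BMP ligands, read 5.82, 5.82 and 6.15 on the wild-type arrays and 7.72, 8.22 and 8.16 on the double-deficient arrays and rose 4.3-fold (log2 change 2.11, SE 0.142, adjusted p = 3.86e-05). Apcdd1, a membrane inhibitor of Wnt receptors, read 7.41, 7.43 and 7.03 in wild-type and 8.56, 8.85 and 8.57 in double-deficient MEFs and rose 2.58-fold (log2 change 1.37, SE 0.123, adjusted p = 0.000139). The ligands Wnt5a and Wnt2, the receptor Fzd6 and the inhibitors Dkk1 and Wif1 rose by 0.53, 0.70, 0.86, 0.63 and 0.93 on the log2 scale (adjusted p = 0.000755, 0.0104, 5.1e-05, 0.00363 and 0.000237). Axin2, a direct target of canonical Wnt signalling, did not pass (log2 change -0.04, adjusted p = 0.841). The fall, that of Wls (-0.29), which carries Wnt proteins to the cell surface, did not pass without wild-type array 1 or 3 or double-deficient array 1 or 2, or with the mean of its probe sets.

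In TGF-beta and BMP signalling 11 of 46 genes rose and 9 fell. The ligand Bmp6 lay at the floor on the wild-type arrays and read 5.24, 5.09 and 4.70 in wild-type and 7.27, 7.2 and 7.09 in double-deficient MEFs, a rise of 4.51-fold (log2 change 2.17, SE 0.127, adjusted p = 1.95e-05). Gdf5, a ligand that marks joint-forming mesenchyme, rose 2.32-fold and Tgfb3 rose 1.97-fold (adjusted p = 0.000128 and 0.000221). The activin antagonist Fstl3 fell 2.22-fold and Id1, a direct target of BMP signalling, read 10.96, 10.83 and 10.83 on the wild-type arrays and 10.05, 10.08 and 9.78 on the double-deficient arrays and fell 1.87-fold (adjusted p = 0.000115 and 0.000225).

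Growth factor genes fell in 15 and rose in 10 of 48 cases. Bdnf, the brain-derived neurotrophic factor, read 10.14, 9.75 and 10.06 in wild-type and 8.72, 8.39 and 8.48 in double-deficient MEFs and fell 2.73-fold (log2 change -1.45, SE 0.119, adjusted p = 8.91e-05). The fibroblast growth factor family moved apart, with Fgf18 2.26-fold higher and Fgf13 3.12-fold lower (adjusted p = 0.000105 and 8.61e-05). So did the binding proteins of insulin-like growth factors. Igfbp3 read 7.52, 8.04 and 7.30 in wild-type and 9.41, 9.53 and 9.57 in double-deficient MEFs and rose 3.68-fold (log2 change 1.88, SE 0.164, adjusted p = 0.000122), whereas Igfbp7 read 13.81, 13.60 and 13.80 on the wild-type arrays and 12.57, 12.38 and 12.73 on the double-deficient arrays and fell 2.26-fold (log2 change -1.18, SE 0.101, adjusted p = 0.000116).

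Receptors for hormones and peptides rose in 17 of 45 cases (37.8%) and fell in 9, with 11 rises without wild-type array 3. Besides Agtr2, Lpar4, a receptor of lysophosphatidic acid, and Ackr3, a scavenger receptor of chemokines, rose 2.79-fold and 2.77-fold (adjusted p = 2.78e-05 and 1.35e-05). Npr3, the clearance receptor of natriuretic peptides, read 8.22, 8.10 and 8.15 in wild-type and 6.24, 6.30 and 6.52 in double-deficient MEFs and fell 3.5-fold (log2 change -1.81, SE 0.0844, adjusted p = 7.21e-06). Of 26 Hedgehog and Notch genes 9 rose and 4 fell, the latter 2 without wild-type array 1 or double-deficient array 1. Gas1, a surface co-receptor of Hedgehog ligands, read 8.86, 10.00 and 9.34 in wild-type and 11.63, 11.94 and 11.97 in double-deficient MEFs and rose 5.45-fold (log2 change 2.45, SE 0.246, adjusted p = 0.00024), and the receptors Notch3 and Notch1 rose 2.89-fold and 2.16-fold (adjusted p = 1.58e-05 and 0.000139).

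Imprinted genes, expressed from the allele of 1 parent and many of them regulators of fetal growth, rose in 12 of 31 cases (38.7%) and fell in 3. Mest, a paternally expressed growth gene, read 7.51, 7.81 and 7.36 on the wild-type arrays and 10.42, 10.66 and 10.23 on the double-deficient arrays and rose 7.37-fold (log2 change 2.88, SE 0.136, adjusted p = 7.4e-06). Dlk1 and Nnat, given above, followed in size. Peg10, Plagl1, Meg3 and Igf2 rose by 1.48, 1.20, 1.20 and 0.86 on the log2 scale (adjusted p = 0.000323, 3.16e-05, 2.59e-05 and 5.03e-05). Cdkn1c, a maternally expressed inhibitor of the cell cycle, read 10.44, 9.93 and 9.72 in wild-type and 9.06, 8.78 and 8.92 in double-deficient MEFs and fell 2.16-fold (log2 change -1.11, SE 0.166, adjusted p = 0.00167). The arrays do not tell the alleles apart.

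Of 43 proliferation genes 4 rose and 4 fell, shares below those of all genes. Ccnd1 fell 1.45-fold and Ccnd2 rose 1.71-fold, both D-type cyclins of the first growth phase (adjusted p = 0.0112 and 0.000178). The rises were 2 without array 1 or 3 of the wild type or array 1 of the double-deficient group. Targets of the tumour suppressor p53 rose in 17 of 26 cases (65.4%) and fell in 2. Fas, a death receptor, read 7.25, 7.27 and 7.31 in wild-type and 9.25, 9.06 and 9.15 in double-deficient MEFs and rose 3.67-fold (log2 change 1.88, SE 0.0674, adjusted p = 2.83e-06). Tap1, a peptide transporter that is also on the interferon list, rose 3.02-fold (adjusted p = 7.75e-05). Cdkn1a, the cell cycle inhibitor p21, did not pass (log2 change 0.26, adjusted p = 0.0511).

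The interferon-stimulated list rose in 33 of 45 cases and its mean log2 level was 6.969 to 7.043 on the wild-type and 7.722 to 8.305 on the double-deficient arrays. Ifit1, which binds viral RNA, read 5.57, 5.99 and 5.72 on the wild-type arrays and 9.24, 10.04 and 10.89 on the double-deficient arrays, so the 3 double-deficient arrays spread over more than 1 log2 unit in this program. Rtp4, an interferon-responsive chaperone of membrane receptors that is not on the list, spread likewise, with 6.70, 6.61 and 6.42 in wild-type and 8.07, 8.75 and 9.72 in double-deficient MEFs.

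Both chromatin families were read beyond the deleted genes. Of 24 Polycomb genes 6 rose (25%, against 13.2% of all genes) and 5 fell (20.8%, against 14.0%), the latter 3 without double-deficient array 2. Rnf2, the ubiquitin ligase of PRC1, read 9.38, 9.53 and 9.39 in wild-type and 10.51, 10.59 and 10.72 in double-deficient MEFs and rose 2.26-fold (log2 change 1.18, SE 0.0766, adjusted p = 3.16e-05), and its partner Bmi1 rose 1.59-fold (adjusted p = 0.000264). A pair of dimmer Rnf2 probe sets did not pass (adjusted p = 0.738 and 0.138). Ezh1, the other methyltransferase of PRC2, did not pass (log2 change 0.09, adjusted p = 0.419). Of 22 SWI/SNF genes 4 rose and 2 fell, including Smarcb1, and 4 fell with the mean of all probe sets of a gene. The share called either way was 27.3%, near the 27.1% of all genes. Arid1a, a large subunit that is often mutated in cancer, read 9.65, 9.54 and 9.57 on the wild-type arrays and 10.37, 10.42 and 10.43 on the double-deficient arrays and rose 1.77-fold (log2 change 0.82, SE 0.0597, adjusted p = 5.17e-05).

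To see where the double-deficient line differs from a line lacking Ezh2 alone, the changes were set beside those of 3 Ezh2-deficient arrays. Both comparisons used the same 3 wild-type hybridisations, so they share their controls, and where the lines differ is read from the test of the difference. The changes of the Ezh2-deficient line from wild type are given beside it. Over all genes 3680 of 12393 (29.7%) differed between the lines, 2016 higher (16.3%) and 1664 lower (13.4%) in the double-deficient line. Of the 312 genes changed at least 2-fold, 284 differed in the same direction (162 of the 176 rises and 122 of the 136 falls), and 28 did not. These genes were picked on the same double-deficient arrays, so this count is a description. Of the 43 proliferation genes, 33 were higher in the double-deficient than in the Ezh2-deficient line and 0 lower by the test of the difference (25 higher without Ezh2-deficient array 1, the lowest count with any 1 array left out). Their median log2 change from wild type was 0.03 in the double-deficient and -0.415 in the Ezh2-deficient line. For cholesterol synthesis these medians were -0.271 and -0.309, with 3 of 19 genes higher and 2 lower by the test of the difference. Without Ezh2-deficient array 2 there were 8 higher, and without Ezh2-deficient array 3 there were 6 lower. Glycolysis had medians of -0.291 and -0.147 (3 of 19 higher, 6 lower) and ribosome biogenesis -0.205 and -0.13 (1 of 29 higher, 4 lower). The Ezh2-deficient arrays were not alike in sex-linked genes: Xist read 6.45, 9.56 and 9.52 and Eif2s3y 8.24, 3.65 and 4.00 on them, and the part of sex in the difference was not tested.

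**Figure D5:**
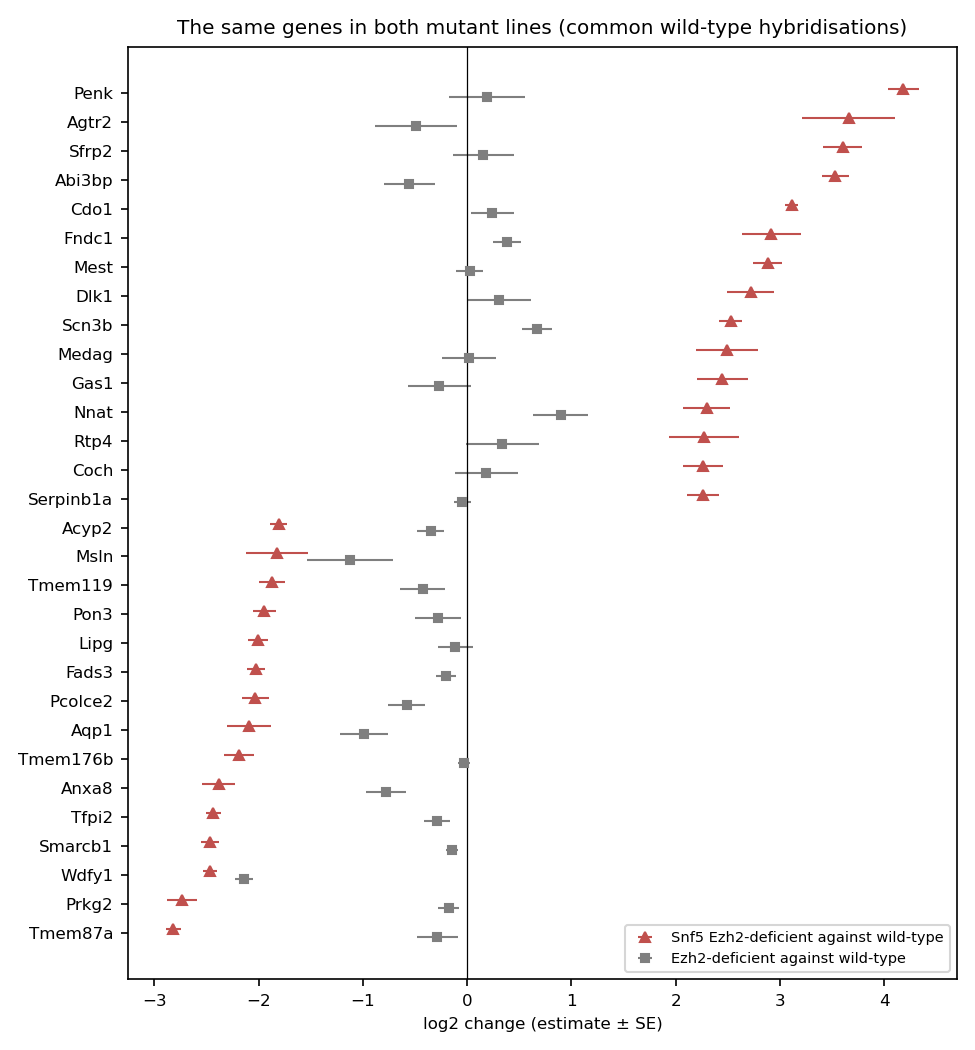
Log2 change (estimate ± SE) of the 15 largest rises and 15 largest falls of the Snf5 Ezh2-deficient line (triangles) and of the same genes in the Ezh2-deficient line (squares), against the same wild-type hybridisations. The squares lie near 0 for genes such as Mest and Tmem176b, and for Wdfy1 both symbols lie below -2.

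Penk changed by 4.18 in the double-deficient and by 0.19 in the Ezh2-deficient line, a difference of 4.00 (adjusted p = 3.09e-05). For Slc2a3 the changes were 1.96 and -0.44 (difference 2.39, adjusted p = 1.74e-06), and for Loxl4 they were -1.76 and -0.24 (difference -1.52, adjusted p = 2.82e-06). Mgp rose by 1.03 in the double-deficient line and fell by 1.48 in the Ezh2-deficient line (adjusted p = 0.00243 there; difference 2.51, adjusted p = 3.67e-05). For Papss2 the changes were 1.53 and 1.11 (difference 0.42, adjusted p = 0.000739), and for Wdfy1 they were -2.47 and -2.14 (difference -0.33, adjusted p = 0.0142). Krt7 changed by -1.69 and -1.0 (adjusted p = 0.022 in the Ezh2-deficient line), a difference of -0.68 (adjusted p = 0.00245). For Msln, Slc16a3, Myh11, Tbx2 and Eln the difference did not pass (adjusted p = 0.219, 0.248, 0.584, 0.357 and 0.427), which does not show that the lines were alike there.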

How the data were processed

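RNA of 3 Snf5 Ezh2-deficient and 3 wild-type MEF samples was measured on Affymetrix Mouse 430A 2.0 arrays. Per the labels' protocols, the authors purified RNA with Trizol and a Qiagen column and turned the scans into 1 value per probe set by RMA (Robust Multichip Average: background correction, quantile normalisation and a robust summary of probes). Software and version are not given in the sources used. The authors deposited linear RMA intensity, as the range of the values shows, and its log2 was taken here, whereas the design had assumed deposited log2 values. Arrays give no counts, so their number limits the precision.

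Of 22690 probe sets, 64 controls were left out. By the platform's annotation 20380 of the rest named 1 gene, 691 several and 1555 none, and 20351 gene numbers were found in a GRCm38.p6 gene table, with 0 symbols changed. A gene was read through the probe set with the highest mean log2 over the 6 arrays among those naming it alone. limma 3.58.1 in R 4.3.3 (functions lmFit, eBayes) compared the groups with 4 residual degrees of freedom. Benjamini-Hochberg adjustment ran over all 22626 probe sets at a threshold of 0.05. The median SE was 0.0741. Each adjusted p of double-deficient against wild-type arrays is from this test, unless an alternative is named with it. For the Ezh2-deficient line against wild type, it is from a separate fit with the control arrays titled for that line. For the difference between the lines, it is from the fit described in the next paragraph. RMA values hold no detection calls, and values in the lowest 25% of an array were taken as near the floor. The fit of double-deficient against wild-type arrays was tested on simulated data in which 200 of the 22626 probe sets were shifted. It called 59.5% of shifts of log2 0.5, 93% of shifts of 1 and 100% of shifts of 2.

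The control arrays of both MEF sets were the same hybridisations. With each probe set's mean offset between the sets taken away, same-numbered controls differed by 0.022 to 0.0239 (SD, 5547 bright probe sets) and other pairs by 0.138 to 0.152. The difference from the Ezh2-deficient line was therefore fitted on 9 arrays (6 residual degrees of freedom), with the second set moved by the offset of the controls and each control averaged. This ignores the error of the offset.

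The genes and the 51 lists (1645 symbols, 1416 measured) were chosen with earlier results of these data known, and no list was tested. Named were Ezh2, Smarcb1, the 15 largest rises and 15 largest falls among called genes without overlap between groups (interferon list and clone names left out), and the 3 largest called rises and falls of each list. Smarcb1 is also among the 15 falls. Sox9, Pparg, Slc2a1, Axin2, Wnt5a, Wnt2, Fzd6, Dkk1, Wif1, Peg10, Plagl1, Meg3, Igf2, Cdkn1a, Ezh1, the sex-linked genes, the unchanged cell type markers and the further genes of the plots were chosen after their values were seen. Alternatives were other scalings, variance models, a filter on dim probe sets, the mean of all probe sets, the 9 arrays, a replicate block and leaving out each array. Columns of other samples were not used.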

Additional observations from a re-analysis of the deposited data

How the results depend on the processing

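The numbers of genes called kept within 1.5 times of the reported ones under each alternative run. Without each array in turn, 1272 to 1495 genes were higher and 1270 to 1582 lower, with 165 to 202 and 125 to 148 at 2-fold or more, and the difference from the Ezh2-deficient line gave 1665 to 1937 higher and 1149 to 1563 lower. Replicate numbers did not pair the samples: deviations of same-numbered arrays correlated with r of 0.0472, 0.091 and -0.0348 over 11313 probe sets. With the replicate block, 1505 genes were higher and 1527 lower (178 and 138 at 2-fold or more), and 1883 and 1504 in the difference. Of 262 named genes that were called, 229 kept their call without each array, 14 to 24 lost it at a time, and at most 13 lost it under any other alternative, with 8 not tested when dim probe sets were left out. Phgdh, a serine synthesis enzyme, reversed, from -0.38 to 0.12 (adjusted p = 0.834) with the mean of all its probe sets. A dimmer probe set of Phgdh read higher with a wide spread and did not pass (log2 change 1.85, SE 1.28, adjusted p = 0.352). Its other dimmer probe sets were called lower (log2 change -0.60 and -0.37). Other scalings moved the median of all genes by -0.014 and -0.00262 (log2). Of the 102 counts of list members called higher or lower, 26 moved by over 1.5 times when some array was left out and 17 under another alternative. The simulation called 59.5% of shifts of 0.5 (log2) with 200 probe sets shifted. In the data 5857 probe sets were called, so that share does not carry over. The share of such changes missed here was not measured.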
